A study of Mus musculus with 6 samples.

Results

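The Wnt secretion and β-catenin pathway was followed through 9 genes, Porcn, Wnt3, Lrp6, Axin1, Gsk3b, Ctnnb1, Tcf7, Axin2 and Sp5, in mouse cells without Nac1 during rescue with human NAC1. The genes were chosen by symbol, every probe carrying one of these symbols was taken, and they make up 9 of the 28908 gene symbols of the array, with 14 of its 45281 probes. The list was drawn up with earlier results of these arrays known, so the changes of these genes between days are given as a description. They were part of the fit over all genes, but their p-values for these changes support nothing here. The samples were induced pluripotent stem cells (iPSC), all of them null for Nac1, the gene of a BTB protein found in the nucleus of stem cells. The lines are single clones, iPS clone #5 and iPS clone #7, and each was taken on days 0, 2 and 5 of the hNAC1 rescue, which gave 6 arrays, 1 per clone and day. The labels do not say how human NAC1 was delivered, and no cells without the rescue from the same days were analysed here. What the rescue did and what further days in culture did cannot be told apart.

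Wnt proteins are lipid-modified in the endoplasmic reticulum by the acyltransferase Porcupine, the product of Porcn, and without this step they are not secreted. Outside the cell they bind a Frizzled receptor together with the co-receptor LRP6 or LRP5. In their absence a complex built on the scaffold AXIN1 lets the kinase GSK3β phosphorylate β-catenin (Ctnnb1), which is then degraded, and in their presence β-catenin accumulates and acts on genes bound by TCF and LEF factors such as TCF7. Axin2 and Sp5 are widely used as target genes of this pathway, and AXIN2 itself feeds back on the destruction complex. In mouse pluripotent cells the pathway supports self-renewal, and β-catenin also links E-cadherin to the cytoskeleton.

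Short promoter windows were searched for letters that TCF and LEF factors recognise. The RefSeq table (build GRCm38.p6) held windows of 250 bases before to 50 bases after the start site for 6 of the 9 genes. The TCF/LEF core was searched on both strands as 4 words, which were CTTTGAA with its variant CTTTGAT, then the word CTTTGTA and its variant CTTTGTT, and 16.9% of all 32851 windows of 300 bases held at least 1 of them. Of the 8 windows of the 6 genes, 2 held a match, and they belong to Sp5 and Wnt3. The windows of Sp5 and Axin2, the target genes, are printed 5′ to 3′ with the matches in capitals. The first of 2 windows of Ctnnb1, whose signal was lower after day 0 in both clones, is printed likewise. The printed windows lie on the plus strand at chr2:70474673-70474972 (Sp5), chr11:108920099-108920398 (Axin2) and chr9:120933150-120933449 (Ctnnb1).
Sp5: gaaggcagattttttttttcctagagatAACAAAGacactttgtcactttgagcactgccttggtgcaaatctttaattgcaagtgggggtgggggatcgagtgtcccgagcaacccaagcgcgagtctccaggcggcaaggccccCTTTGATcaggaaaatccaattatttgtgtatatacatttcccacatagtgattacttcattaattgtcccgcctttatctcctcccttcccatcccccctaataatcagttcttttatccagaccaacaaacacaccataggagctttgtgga
Axin2: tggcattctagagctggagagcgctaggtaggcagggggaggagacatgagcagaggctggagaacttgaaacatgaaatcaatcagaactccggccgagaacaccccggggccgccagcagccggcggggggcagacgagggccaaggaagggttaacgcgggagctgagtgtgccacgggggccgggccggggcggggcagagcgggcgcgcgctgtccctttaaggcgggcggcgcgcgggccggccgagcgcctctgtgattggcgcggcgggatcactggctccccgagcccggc
Ctnnb1: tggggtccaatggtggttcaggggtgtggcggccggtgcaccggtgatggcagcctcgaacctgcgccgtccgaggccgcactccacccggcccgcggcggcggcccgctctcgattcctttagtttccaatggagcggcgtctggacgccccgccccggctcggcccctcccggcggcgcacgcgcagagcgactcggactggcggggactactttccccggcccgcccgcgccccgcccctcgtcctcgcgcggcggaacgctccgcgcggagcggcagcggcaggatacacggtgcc
The Sp5 window holds CTTTGAT from position -104 and AACAAAG, the reverse complement of CTTTGTT, from position -222, counted from the start site. The Axin2 window and both Ctnnb1 windows hold none of the words, which says only that these letters are not in these stretches.

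Signals were compared after background correction and quantile normalization on a log2 scale, and a probe counts as detected on an array where its detection p-value was under 0.05. Between 16739 and 18150 probes were detected per array. Undetected probes had a median signal between 89.5 and 91.6 on every array, and 95% of them were below 96.8 to 99.2. A gene entered the fit where a probe was detected on both arrays of at least 1 day, which held for 12030 genes and for 12 of the 14 probes and 8 of the 9 genes described here. The exception was Wnt3. Of 12 markers of pluripotent stem cells all were measured, Pou5f1, Nanog and Sox2 among them, with a summed background-corrected signal between 42182 and 50326 per array. Of 12 fibroblast markers only Thy1 was measured, between 40.9 and 420 on day 0, 18.0 and 101 on day 2 and 151 and 179 on day 5, while Col1a1, Col1a2 and Col3a1 were not above background on both arrays of any day. Of 8 primitive endoderm markers only Gata6 entered, through day 5, where it lay at 33.4 to 41.8. On day 0 it was at background (4.52 to 6.07), so the size of its difference is not known. Of 7 mesendoderm markers only Gsc was measured, at 17.2 to 35.0 on day 0 and 77.3 to 79.9 on day 5. For the same days, 3 of 7 neuroectoderm markers summed to 908 to 1441 and 634 to 700.0. Of 8 trophectoderm markers 3 were measured, Tfap2c, Krt8 and Krt18, with sums of 984 to 1149 on day 0, 842 to 899.8 on day 2 and 967 to 1377 on day 5. The part of these markers in the day differences was not tested. In RNA from whole cultures, fewer cells that express a gene and less RNA per cell cannot be told apart.

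Porcn was lower on day 2 and lower again on day 5 in both clones. Its main probe had a raw signal of 556 in clone 5 and 579 in clone 7 on day 0, 287 and 199 on day 2, and 199 and 168 on day 5. The clones started at nearly the same level, and within each clone the order was day 0 over day 2 over day 5. Both day 0 arrays lay above all others, while the raw signals of days 2 and 5 overlapped, with clone 7 on day 2 (199.05) just below clone 5 on day 5 (199.22). On the normalised log2 scale the levels were 8.95 and 9.02 on day 0, 7.68 and 6.92 on day 2, and 6.84 and 6.60 on day 5, so that days 2 and 5 were separated by a narrow margin. Day 2 minus day 0 was -1.27 in clone 5 and -2.10 in clone 7, with a mean of -1.68 ± 0.23 (SE of the fit, n = 2 arrays per day), which is 3.21-fold. By day 5 the difference from day 0 was -2.11 in clone 5 and -2.42 in clone 7, a mean of -2.26 ± 0.23 or 4.80-fold. From day 2 to day 5 the difference was -0.84 in clone 5 and -0.32 in clone 7.

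The other Porcn probe gave the same order at a signal much closer to background. It read 151 and 139 on day 0, 110 and 102 on day 2, and 103 and 98.0 on day 5, the last value, in clone 7, being undetected. As log2 values, its mean difference from day 0 was -1.19 ± 0.17 at day 2 and -1.56 ± 0.17 at day 5. Across the 6 arrays the probes had a Pearson r of 0.988, a description of arrays that share clones and days. In the authors' deposited table of selected probes Porcn appears with both probes, at log2 differences of -2.44 and -2.83 on day 5 (5.43-fold and 7.11-fold) and -1.81 and -1.88 on day 2. Those values come from the same arrays, so they are no independent support. Their scale runs lower for weak signals, with the undetected value of the weaker probe at 2.68 there and 4.53 here. The other 8 genes were not found in the authors' deposited table.

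**Figure D1:**
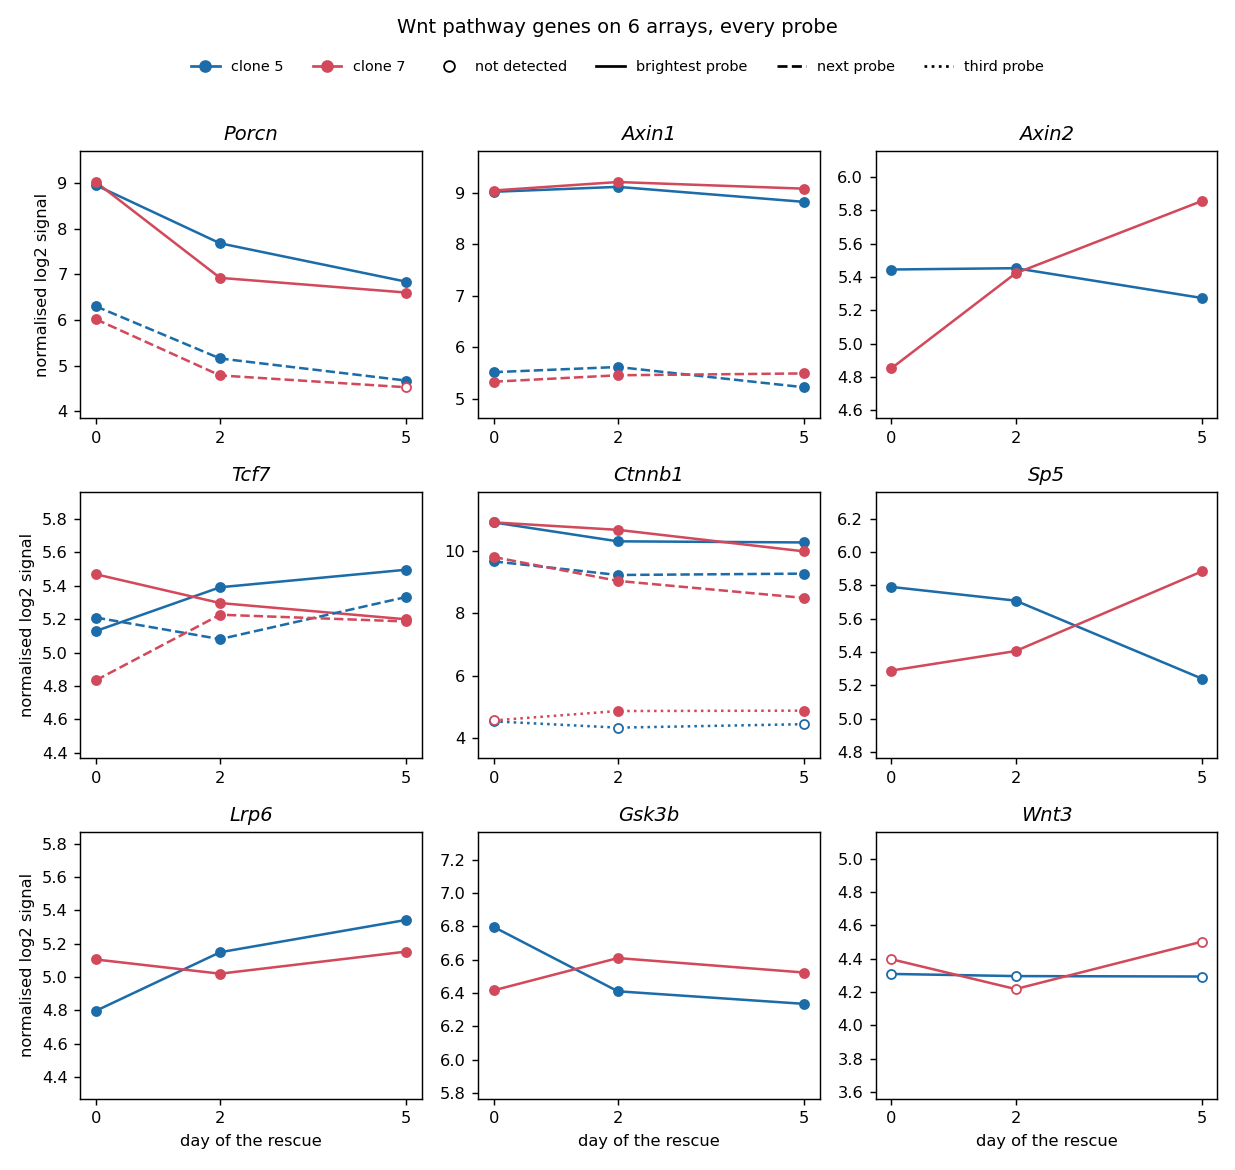
Normalised log2 signal of every probe of the 9 genes on days 0, 2 and 5, 1 array per point, with clone 5 in blue, clone 7 in red and undetected values as open circles. With axes that differ between panels, both Porcn probes and the 2 brighter Ctnnb1 probes lie lower on days 2 and 5 than on day 0 in each clone, and Axin2 and Sp5 lie on opposite sides of their day 0 level in the clones on day 5.

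Wnt3, the ligand of the list, was not detected on any array. Its probe read between 86.3 and 97.5, within the range of undetected probes, so no level or change can be given. The co-receptor gene Lrp6 was detected on all 6 arrays at 102 and 110 on day 0, 110 and 106 on day 2, and 120 and 111 on day 5, in clone 5 and clone 7. Both day 5 values lay above both day 0 values, and the log2 values differed by 0.55 in clone 5 and 0.05 in clone 7. The mean of 0.30 ± 0.19 is less than the range between the clones. A probe listed under C030016K15Rik, an older symbol of Lrp6 outside the rule, was detected on 3 arrays and did not repeat this order, with a mean of -0.30 on day 2 and, on day 5, 0.34 in clone 5 and -0.18 in clone 7.

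The destruction complex genes differed little between days. Axin1, the scaffold, had raw signals of 584 and 591 on day 0, 647 and 675 on day 2, and 558 and 588 on day 5. It was a little higher on day 2 in both clones, by 0.10 in clone 5 and 0.16 in clone 7 on the log2 scale, and the day 5 values overlapped those of day 0 (-0.20 and 0.04). The weaker Axin1 probe, between 115 and 124, had mean differences of 0.11 ± 0.19 on day 2 and -0.07 ± 0.19 on day 5. Gsk3b, the kinase, read 182 and 159 on day 0, 162 and 174 on day 2, and 164 and 163 on day 5. Its mean difference from day 0 was -0.10 ± 0.20 on day 2 and -0.18 ± 0.20 on day 5, with the clones on opposite sides of 0 on both days.

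Ctnnb1, the gene of β-catenin, was lower on both later days in both clones. Its brightest probe read 2080.2 in clone 5 and 1949 in clone 7 on day 0, 1372 and 1694 on day 2, and 1366 and 1044 on day 5. No day 2 or day 5 array reached the lower of the day 0 values. The log2 difference from day 0 was -0.61 in clone 5 and -0.24 in clone 7 on day 2, and -0.64 and -0.93 on day 5. The means were -0.42 ± 0.20 on day 2 and -0.79 ± 0.20 on day 5, the last equal to 1.72-fold. Clone 5 had reached its day 5 level by day 2, with -0.04 between these days, while clone 7 had -0.69 between them.

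The next Ctnnb1 probe read 890.2 and 952 on day 0, 692 and 611 on day 2, and 728 and 417 on day 5, which is a mean difference of -0.60 ± 0.24 on day 2 and -0.85 ± 0.24 on day 5. A probe listed under Catnb, an older symbol of the same gene, lay outside the rule and differed by -0.61 on day 2 and -0.91 on day 5. The third probe under the current symbol was detected on 2 of the 6 arrays and gave no usable level. All 3 probes that were detected on every array therefore had the same sign on both days.

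The transcription factor gene Tcf7 had no common direction in the clones. Its main probe read 109 and 119 on day 0, 117 and 113 on day 2, and 126 and 112 on day 5, so day 5 minus day 0 was 0.37 in clone 5 and -0.27 in clone 7 as log2 values. Its other probe, between 104 and 120, had 0.12 in clone 5 and 0.35 in clone 7 for the same days. The probes had a Pearson r of -0.291 over the 6 arrays, and they do not give the same order of days.

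The target genes Axin2 and Sp5 went opposite ways in the clones by day 5 on the normalised log2 scale. Their probes read at most 132, close to undetected probes, so whether they moved with Ctnnb1 cannot be told. Axin2 read 117 and 105 on day 0, 119 and 117 on day 2, and 118 and 131 on day 5, with log2 differences of -0.17 in clone 5 and 1.003 in clone 7 by day 5. The highest and the lowest Axin2 values were both in clone 7, and clone 5 stayed within 0.18 on the log2 scale. Sp5 read 128 and 114 on day 0, 128 and 116 on day 2, and 117 and 132 on day 5, with differences of -0.55 in clone 5 and 0.59 in clone 7. All days of both genes overlapped, and the mean differences on day 5 were 0.42 ± 0.27 for Axin2 and 0.02 ± 0.28 for Sp5.

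Set side by side, the 8 measured genes had a median log2 difference of 0.03 on day 2 and -0.03 on day 5 from day 0, against 0.01 and 0.00 over all 12030 genes. The medians of the clones on day 5 were -0.33 and 0.04, each over 8 genes. By limma fitted over all genes, 1 of the 8, Porcn, had an adjusted p up to 0.05 for day 5 against day 0, where 4.26% of all genes did, and 0 of the 8 did for day 2 against day 0, where 0% of genes did (1 of the 8 and 1630 of all genes had an unadjusted p under 0.05). The adjusted p of Porcn for day 5 was 0.00764 by limma, and over the alternatives it ranged from 0.00218 to 0.0935, above 0.05 with the authors' series values and with no detection filter. With the series values and with no detection filter, 0 of all genes passed for day 5 against day 0. Since the genes were listed with these changes known, nothing is read from these counts. Arrays of different days did not overlap for 3 of the 8 genes on day 2 against day 0 (Axin1 above, Porcn and Ctnnb1 below), where 42.9% of all genes did not (23.4% above and 19.5% below), and for 3 on day 5 against day 0 (Lrp6 above, Porcn and Ctnnb1 below), where 48.7% did not (25.1% above and 23.6% below). For day 5 against day 2 the groups did not overlap for 4 of the 8, Lrp6 above and Porcn, Ctnnb1 and Axin1 below, with 46.7% among all genes (21.7% above and 25% below). All 3 comparisons share arrays, so they are not independent of each other.

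**Figure D2:**
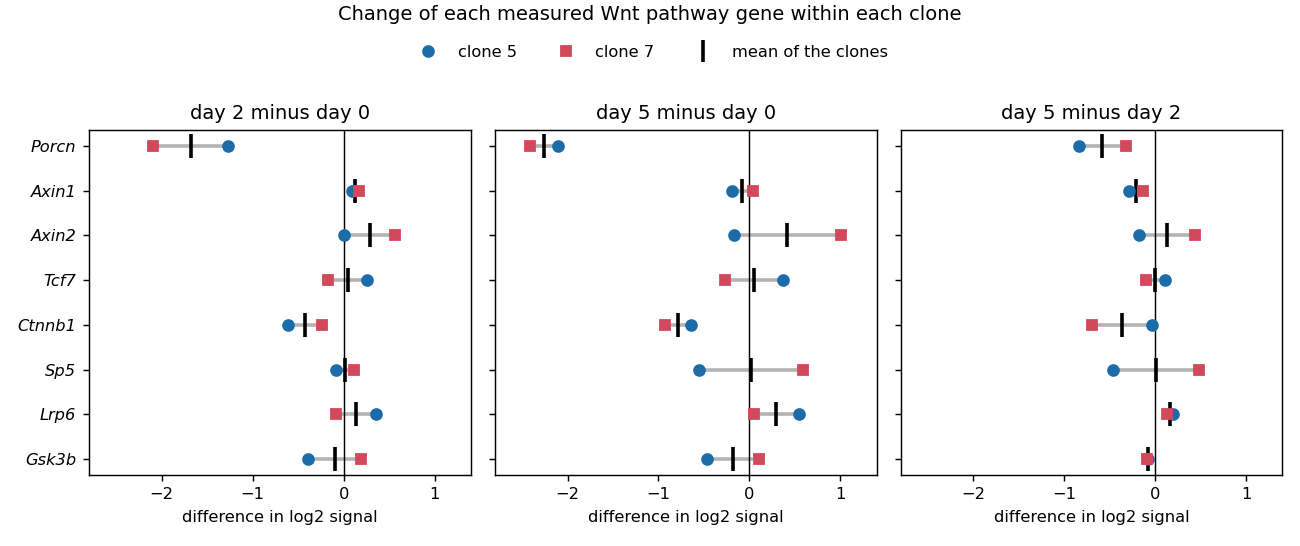
Difference in log2 signal between days within clone 5 (circles) and clone 7 (squares) for the 8 measured genes, with the mean of the clones as a bar. Porcn lies at -2.11 and -2.42 for day 5 minus day 0 and Ctnnb1 at -0.64 and -0.93, while Axin2, Sp5, Tcf7, Gsk3b and Axin1 have the clones on opposite sides of 0.

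The clones were also compared with each other within days, a difference the genes were not listed for. By limma, 0 of the 8 genes passed between clone 7 and clone 5 over the 3 days (adjusted p from 0.595 to 0.998, n = 3 arrays per clone), and 0 of 8 had an unadjusted p under 0.05. Among all genes 0% passed, and 1356 had an unadjusted p under 0.05. The largest mean difference was that of Porcn, -0.31 ± 0.18 in clone 7 on the log2 scale. It was 0.07 on day 0, -0.76 on day 2 and -0.24 on day 5, so the clones lay furthest apart on day 2. Axin1 was 0.13 ± 0.14 higher in clone 7, and the other 6 lay between -0.05 and 0.03. For Axin2 and Sp5 the mean near 0 hides opposite days, with clone 7 lower on day 0 (-0.59 and -0.50) and higher on day 5 (0.58 and 0.64).

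Genes whose log2 values over the 6 arrays were most like those of Porcn, among 2335 genes that range over at least 1 log2 unit, were A930026I22Rik (Pearson r = 0.996), Htra1, a serine protease gene (0.9898), and Golm1 (0.979). On day 5 these lay at -1.01, -2.44 and -1.34 from day 0. For Ctnnb1 they were LOC100047963 (0.986), Endod1 (0.971) and Fxyd6 (0.963), for Axin2 Plvap (0.983), 1600014C23Rik (0.980) and Nol3 (0.980), and for Sp5 Tceal5 (0.900), Iqcf5 (0.871) and Rab33a (0.864). Porcn and Ctnnb1 had an r of 0.822 with each other, Axin2 and Sp5 of 0.784, and Ctnnb1 with Axin2 of -0.677. With 6 arrays from the same clones and days such values are descriptions of shared shape only.

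The rest of the pathway was taken from 8 role lists with 122 other genes, of which 118 had a probe and 64 were measured. From day 0 to day 5, 2 of the 64 rose and 3 fell by limma, where 4.26% of all genes passed (2.46% higher and 1.8% lower). The share of 5 in 64 is above that of all genes, but it rests on 5 genes and was not tested. Nothing particular to the pathway is read from this count. The median of the 64 was 0.10, with 38 above 0 and 26 below, against 0.00 over all genes. From day 0 to day 2, 0 of 64 passed by limma (6 at an unadjusted p under 0.05), where 0% of all genes passed, and the median was -0.03. From day 2 to day 5, Cdh3 alone rose, where 0.79% of all genes passed.

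**Figure D3:**
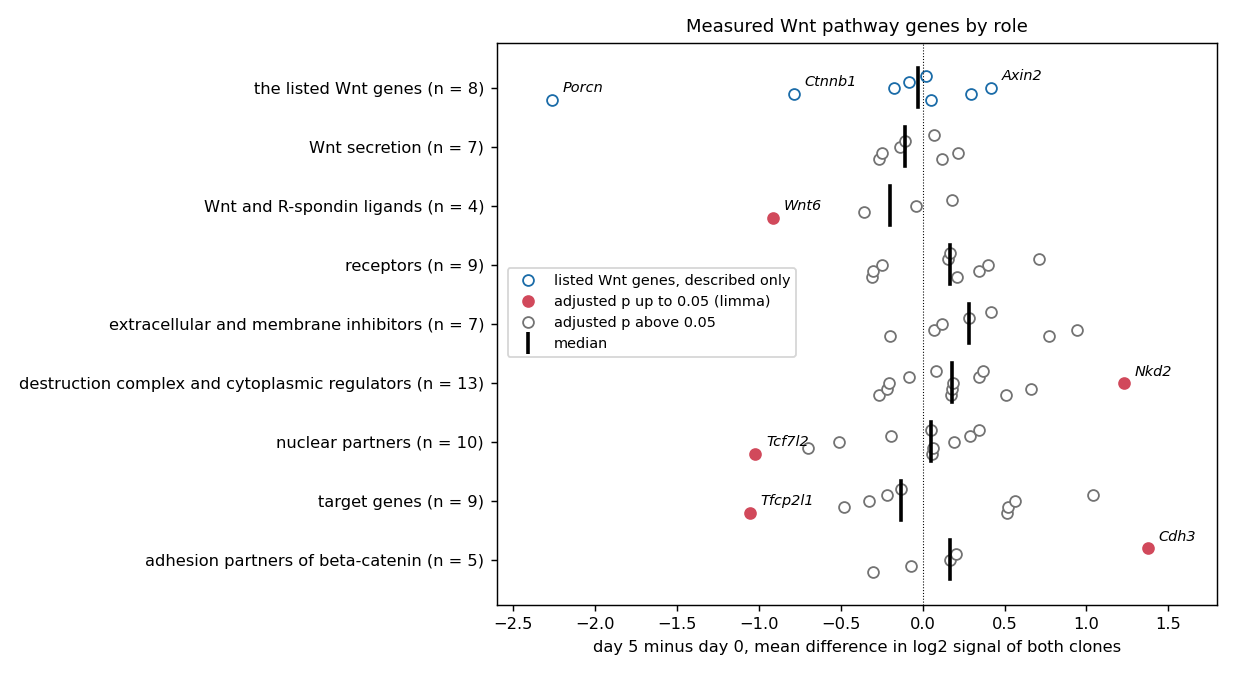
Mean difference in log2 signal between day 5 and day 0 of both clones for every measured gene, by role, with medians as bars. Filled red points passed limma at an adjusted p of 0.05, namely Wnt6, Tcf7l2 and Tfcp2l1 below 0 and Nkd2 and Cdh3 above 0; the 8 measured genes of the list are drawn in blue as a description.

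Among the measured secretion genes Porcn had the largest difference on day 5. It was listed with this change known, so nothing is read from its rank. The 7 others that were measured lay between -0.27 and 0.22 on day 5, with a median of -0.11, and 0 of 7 passed by limma. The 2 furthest from 0 were Snx3 (-0.27 ± 0.19), which encodes a sorting nexin of the route that recycles the Wnt carrier, and Notum (-0.25 ± 0.26), which encodes the deacylase that removes the lipid from Wnt proteins. For Notum the clones lay on opposite sides of 0, at -0.74 in clone 5 and 0.24 in clone 7. Wls, the gene of the Wnt carrier, was not above background on both arrays of any day.

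Of 23 other ligand genes 4 were measured, and Wnt6 fell. It read 123 and 115 on day 0, 103 and 101 on day 2, and 103 and 95.2 on day 5, the last undetected, which is -0.93 in clone 5 and -0.90 in clone 7 by day 5 (mean -0.92 ± 0.17, limma adjusted p = 0.0348). Its other probes were each detected on 3 arrays and lay at -1.05 and 0.20, so they disagree in sign. Wnt8a was detected on both day 0 arrays only, at -0.36 ± 0.17, and did not pass.

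Of 17 receptor genes besides Lrp6, 9 were measured and 0 passed by limma on day 5. Fzd9 had the largest difference with 0.71 ± 0.17 (limma adjusted p = 0.0670), followed by Fzd3 with 0.40 ± 0.20. The Fzd9 probe was detected on 4 of the 6 arrays. On day 0 it read 99.4 and 93.7, close to undetected probes, so its difference starts from a background level. Of 7 measured inhibitors 6 lay above 0 by the mean and 4 in both clones, with a median of 0.28, and 0 of 7 passed. Among all 12030 genes 6026 lay above 0 by the mean and 3708 in both clones. Kremen2, which encodes a receptor for DKK proteins, had 0.79 in clone 5 and 1.09 in clone 7 (limma adjusted p = 0.0531), and Dkk3, a member of the Dickkopf family, 0.40 and 1.14. The Kremen2 probe was detected on 5 of the 6 arrays, and its clone 7 signal on day 0 was 99.1, close to undetected probes.

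Among 13 measured cytoplasmic regulators Nkd2 rose and 0 fell. Nkd2 encodes a Naked cuticle protein that binds Dishevelled. It read 110.3 and 105 on day 0, 116 and 116 on day 2, and 151 and 157 on day 5, so both day 5 values lay above all others (mean 1.23 ± 0.20 on the log2 scale, 2.34-fold, limma adjusted p = 0.0246). The authors' deposited table, from the same arrays on the authors' own scale, lists it at a log2 difference of 1.89. Csnk1d, a casein kinase gene, had 0.66 ± 0.20 and did not pass. Its other 4 probes lay between -0.50 and 0.73.

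Of 10 measured nuclear partners Tcf7l2 fell. Tcf7l2 encodes a TCF factor, and its probe read 128 and 139 on day 0, 123 and 119 on day 2, and 110 and 103 on day 5, lower at each later day in both clones. The log2 difference on day 5 was -0.82 in clone 5 and -1.22 in clone 7, a mean of -1.02 ± 0.18 (2.03-fold, limma adjusted p = 0.0289). Its 4 other probes were not detected on any array. In the authors' deposited table, on the same different scale, the value is -1.69. Tle4, a Groucho corepressor gene, read 1568 and 1675 on day 0, 1412 and 1464 on day 2, and 1064 and 1005 on day 5, with a mean of -0.70 ± 0.16 that did not pass (limma adjusted p = 0.0648). Its other probes were at -0.69 and -0.91.

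Of 9 other measured target genes, Tfcp2l1, a naive pluripotency factor gene held down by TCF7L1 in mouse stem cells, fell. Its signal was 3526 and 3135 on day 0, 3529 and 2503 on day 2, and 1940 and 1345 on day 5, so the larger part of the difference came after day 2 in both clones (mean -1.05 ± 0.19 on day 5, limma adjusted p = 0.0282). Ascl2, a target gene of intestinal stem cells, was at 1.04 ± 0.27 (limma adjusted p = 0.0817). Its probe was detected on 4 of the 6 arrays and read 104 and 98.6 on day 0, close to undetected probes. The early mesoderm targets T, Mixl1 and Cdx2 and also Myc were not above background on both arrays of any day. Among 5 measured cadherin and catenin partners of β-catenin, Cdh3, the gene of P-cadherin, rose. It read 105 and 101 on day 0, 103 and 101 on day 2, and 161 and 139 on day 5 (mean 1.38 ± 0.17, limma adjusted p = 0.0121). This probe was detected on 5 of the 6 arrays. Of the 3 other Cdh3 probes 1 was detected, on 2 arrays, and lay at 0.89. Ctnnd1, which encodes p120-catenin, was at -0.30 ± 0.20 and did not pass.

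These calls rested on few arrays. By limma, 0 of the 64 genes passed for day 5 against day 0 when the clone 7 array of day 0 was left out, 1 when that of day 5 was, and 2 when either day 2 array was. Cdh3 was among the passing genes in 5 of the 6 omissions, and Wnt6 in none of them. For day 5 against day 2 the count of 1 became 4 without either day 0 array, 5 without the day 5 array of clone 5, and 0 without any of the other 3. The split for day 5 against day 0 also moved with the processing, to 3 higher and 1 lower with median scaling, and to 0 higher and 2 lower (Tfcp2l1 and Tle4) with no background correction, where Nkd2 and Cdh3 did not pass. An offset of 50 gave 1 higher and 2 lower. Over all genes 472 passed with median scaling, 127 with no background correction and 352 with an offset of 50, against 512 in the main fit.

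**Figure D4:**
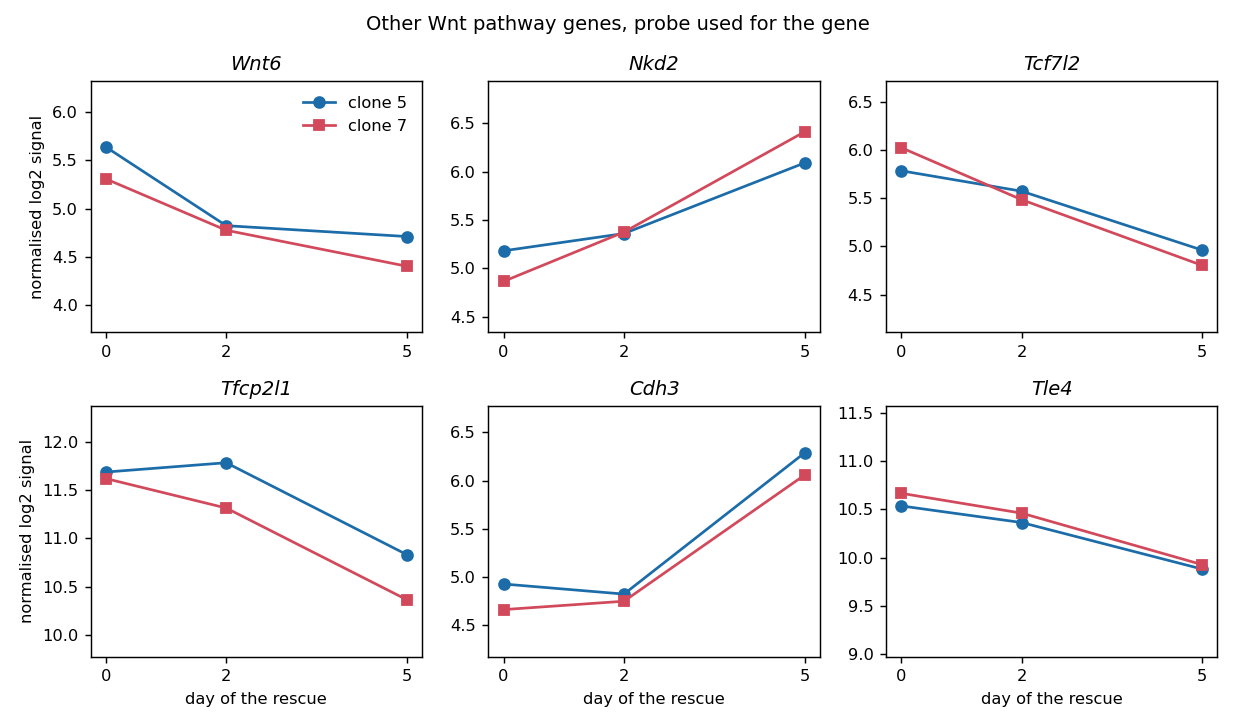
Normalised log2 signal of 6 other pathway genes on days 0, 2 and 5 in clone 5 (circles) and clone 7 (squares), 1 array per point. Wnt6, Tcf7l2 and Tfcp2l1 were lower and Nkd2 and Cdh3 higher on day 5 than on day 0, with adjusted p from 0.0121 to 0.0348 by limma, and Tle4, at 0.0648, did not pass.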

How the data were processed

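Gene expression was measured on 6 bead arrays of 1 chip. The deposited probe table gives, per the file headers, an unnormalised mean intensity and a detection p-value for every probe. The authors also deposited series values in log2, where 15401 to 15441 probes per array have none, and a table of log2 fold changes of selected probes. The labels name no software for these files.

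Signals were corrected with normexp from the detection p-values (offset 16), quantile normalised and log2 transformed with limma 3.58.1 in R 4.3.3. The detected probe with the highest mean stood for a gene, and symbols were updated through RefSeq (35777 probes matched). Day and clone were fitted to all 12030 genes (lmFit, eBayes, 2 residual degrees of freedom), with Benjamini-Hochberg adjustment over them. Clone was a block because same-numbered samples are the same cell line. Deviations from day means correlated at 0.36 (days 0 and 2), -0.07 (days 0 and 5) and 0.34 (days 2 and 5). With 1 culture per clone and day, the p-value of a day difference sets it against the spread left after day and clone. That spread cannot separate unequal changes of the clones from culture and array noise. It was shrunk toward the spread of all genes (5.24 prior against 2 residual degrees of freedom). On simulated data 85% of genes changed 2-fold and 100% of those changed 4-fold were recovered for day 5 against day 0 (12030 genes), with 15 false calls among 200. For day 5 against day 2 these were 78% and 100%, with 11 false calls among 189. In the measured data 44 genes differed at least 2-fold the same way in both clones for day 2 against day 0, and 0 passed by limma. The simulated shares therefore do not say how often a real 2-fold change passed here. The number of arrays limits the precision. Named are the 9 genes, the pathway genes that passed and the 2 with the largest day 5 change per role list. The members and lists were chosen with earlier results of these data known.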

Additional observations from a re-analysis of the deposited data

Results flagged for a closer look

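For several of the 9 genes the clones moved in opposite directions between the same days on the normalised log2 scale. With 1 array per clone and day, none of these differences was tested. Each value is the log2 change in clone 7 minus that in clone 5. From day 0 to day 5 it was 1.17 for Axin2, 1.14 for Sp5, 0.57 for Gsk3b, 0.23 for Axin1 and -0.64 for Tcf7. From day 0 to day 2 it was 0.58 for Gsk3b, 0.20 for Sp5, -0.44 for Tcf7 and -0.44 for Lrp6. From day 2 to day 5 it was 0.95 for Sp5, 0.61 for Axin2 and -0.20 for Tcf7.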

How the results depend on the processing

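Over the alternatives, Porcn lay between -1.68 and -2.55 on day 5 against day 0 and Ctnnb1 between -0.55 and -1.02, below 0 in all 15 for both genes. By limma, Porcn had an adjusted p of 0.0935 with the series values and 0.0928 with no detection filter, against 0.00764. In both of these settings 0 of all genes passed. Ctnnb1, at 0.0839 in the main fit, had 0.0372 with trended and robust shrinkage. It had 0.104 with clone left out of the fit, 0.215 with no detection filter and 0.218 with the series values. As both genes were listed with their changes known, nothing is read from these p-values. Axin1, Axin2, Sp5, Tcf7 and Gsk3b changed sign for day 5 against day 0 under at least 1 of the alternatives. The count of 5 other pathway genes passing for day 5 against day 0 came with 512 of all genes passing. It was 3 with no replicate block (the fit without clone, 208 of all genes) and 2 with no background correction (127 of all genes). An offset of 50 gave 3 (352 of all genes), and detection p under 0.01 on all 6 arrays gave 1 (43 genes tested, 301 of all genes). With the series values or with no detection filter it was 0, and 0 of all genes passed (2164 and 3742 at an unadjusted p under 0.05). The counts over all genes thus fell too. The cause was not tested. The count of 1 for day 5 against day 2 was 4 with trended and robust shrinkage. It was 0 with no replicate block, no background correction, an offset of 50 or the series values. It was also 0 with no detection filter, the stricter detection or the mean of probes. Over all genes 95 passed in the main fit, and 0 to 61 did in the settings that gave 0. Leaving out 1 array at a time gave 0 to 7 for day 5 against day 0, 0 to 5 for day 5 against day 2, 0 to 2 for clone 7 against clone 5 (Ccnd1 and Dkk3, without either day 5 array) and 0 for day 2 against day 0. The median of the 8 genes became 0.10 (day 2 against 0), -0.066 (day 5 against 2) and -0.076 (clones) with median scaling, -0.039 (day 2 against 0) and -0.15 (day 5 against 2) over the 6 genes of the stricter detection, 0.0038 (day 5 against 2) with no detection filter and -0.032 (day 2 against 0) with the mean of probes. For day 5 against day 0 the median of -0.029 became -0.13 with the stricter detection, and turned sign to 0.016 with median scaling, 0.022 with no detection filter and 0.029 without the day 0 array of clone 5, the other arrays giving down to -0.25. Without 1 array it ranged from -0.23 to 0.13 for day 2 against 0, -0.26 to -0.039 for day 5 against 2 and -0.016 to 0.11 between clones. Probes of Axin2, Sp5, Lrp6 and Tcf7 read at most 132, close to undetected probes, which limits what their changes can show. The same limit holds for the probes used for Wnt6, Tcf7l2, Nkd2 and Cdh3, which read at most 123, 139, 157 and 161. With no background correction Wnt6, Tcf7l2, Nkd2 and Cdh3 did not pass for day 5 against day 0.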

Other observations

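The authors' deposited table lists Nr5a2, a nuclear receptor gene among the target genes, at a log2 difference of 5.62 between day 5 and day 0, which is 49.2-fold. Its values there were -3.33 in clone 5 and -2.34 in clone 7 on day 0. The probe with these values was detected on 1 of the 6 arrays, with a raw signal of 91.4 and 92.1 on day 0 and 98.5 and 99.6 on day 5. The 2 Nr5a2 probes detected on all 6 arrays lay at 0.52 and 0.29 on the log2 scale for the same days, and the first, used for the gene, did not pass (limma adjusted p = 0.174). The gene was chosen after its values were seen.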
